A study of Homo sapiens with 12 samples.

Results

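Desmosomes are the spot-like junctions that fasten epithelial cells to each other, and 10 genes of their parts were followed here through SW1990 and CFPAC-1 cells sorted for the GCTM-5 antigen. They were taken by symbol from a deposited table of 23346 genes: the desmosomal cadherins *DSG2*, *DSG3*, *DSC2* and *DSC3*, the armadillo proteins *JUP*, *PKP1*, *PKP2* and *PKP3*, the plakin *DSP* and the tetraspan protein *PERP*. All 10 were in the table, and all 10 passed the filter for testing, a mean over all samples of at least 0.1 RPKM (reads scaled to the length of the gene and the size of the library).

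In a desmosome, desmogleins and desmocollins of neighbouring cells bind each other in the space between them. Plakoglobin, the product of *JUP*, and the plakophilins hold the inner tails of these cadherins, and desmoplakin (*DSP*) links that plaque to the keratin filaments. Simple epithelia such as the pancreatic duct mostly use *DSG2*, *DSC2*, *PKP2* and *PKP3*, whereas *DSG3*, *DSC3* and *PKP1* are best known from stratified epithelia such as the epidermis.

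SW1990 and CFPAC-1 are established human pancreatic ductal adenocarcinoma lines, in which only some cells carry the GCTM-5 antigen on their surface. Each line gave 3 samples of sorted GCTM-5 positive cells and 3 of GCTM-5 negative cells, 12 samples in 4 groups, and all cells of both kinds were stained with the antibody. The gates, according to the labels, kept strongly stained and unstained cells and dropped those in between, so the groups are the ends of each line's staining range. The samples came from triplicate sorts of a line, and nothing says that they were separate cultures, so the p-values measure the spread between these samples, which may be technical. The labels and the methods differ on the library kit, the medium and the secondary antibody, and line cannot be told apart from anything else that differed between the lines' cultures or libraries. In a bulk sample of sorted cells, more cells with a transcript and more transcript per cell cannot be told apart.

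Libraries held 9969697 to 26159330 reads, as recovered from the steps between the RPKM values. GCTM-5 positive CFPAC-1 replicate 3 stood apart, with the fewest reads and correlations of 0.968 with the other samples of its group, against 0.977 to 0.986 within the other 3 groups. Results that rest on it are given with and without it. Of 7 genes of duct epithelium, all were above 0 in every group, with a summed level of 1662 to 2007 RPKM in SW1990 negative cells, 4686 to 5112 in SW1990 positive cells, 5960 to 6702 in CFPAC-1 negative cells and 6937 to 8501 in CFPAC-1 positive cells. The acinar genes summed to at most 0.295 RPKM. The 5 leukocyte genes summed to 35.6 to 49.9 RPKM in SW1990 negative, 16.2 to 34.8 in SW1990 positive, 179.1 to 209.6 in CFPAC-1 negative and 162.6 to 228.0 in CFPAC-1 positive cells. Of these, *PTPRC* and *CD3E* had group means of at most 0.0235 RPKM. *CD68*, a lysosomal protein that other cells make too, had group means of 21.7 to 138.3 RPKM, *LYZ*, which encodes lysozyme, 1.22 to 64.1 RPKM and *CD14* 0.287 to 9.23 RPKM.

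In SW1990, 5 of the 10 desmosome genes were higher in GCTM-5 positive cells and 0 were lower, a call being a fitted change past 2-fold together with an unadjusted p under 0.01 in limma. Of all 16236 genes tested in SW1990, 12.1% were called, 4.59% as higher and 7.48% as lower. The 5 were *JUP*, *PKP3*, *DSC2*, *DSG2* and *PKP2*, the cadherins and armadillo proteins of simple epithelia, and no member was lower at an unadjusted p under 0.05 in limma or was called lower by voom. In CFPAC-1, 3 of the 10 were higher, *PKP1*, *DSG3* and *PKP2*, against 5.65% of all genes, and 9.78% of all genes were called in either direction. There 0 members were called lower by limma, against 4.13% of all genes, and 0 by voom, against 851 of 16236 genes. In limma 1 member, *PERP*, was lower at an unadjusted p under 0.05. *PKP2* was called higher in each line, as were 0.591% of all genes. Median changes of the members were 0.97 on the log2 scale in SW1990 and 0.24 in CFPAC-1, beside -0.04 and 0.05 over all genes.

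Other markers moved with the same sort. In SW1990, 5 of 7 duct epithelium genes were called higher with GCTM-5, and 4 of the 5 mesenchymal genes tested, *VIM*, *CDH2*, *FN1* and *ZEB1*, were called lower. The summed level of the 6 mesenchymal genes ranged from 1219 to 1400 RPKM in SW1990 negative cells and from 217 to 404 RPKM in positive cells, with *TWIST1* at 0 in every sample. In CFPAC-1, 0 of the 7 duct genes were called by limma or voom, and 4 had an unadjusted p under 0.05, of which *KRT7*, *KRT8* and *KRT18* were at higher and 1 at lower levels with GCTM-5. Of all genes there, 36.5% passed even the stricter cut of an adjusted p under 0.05. The duct sums of the CFPAC-1 groups did not overlap, but the median change of the 7 duct genes there was -0.08, beside 0.05 over all genes. Of the mesenchymal genes there, 1 of 5 tested, *ZEB1*, was called lower. The mesenchymal sums there were 558 to 759 RPKM in negative and 428 to 600 RPKM in positive cells. The part of these markers in the desmosome results was not tested.

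Summed over the 10 desmosome genes, the level ran from 182.7 to 212.5 RPKM in SW1990 negative cells and from 444.2 to 470.8 RPKM in SW1990 positive cells. CFPAC-1 negative cells had 604.6 to 621.2 RPKM and positive cells 614.5 to 684.1 RPKM. The ranges of the SW1990 groups lay apart from each other and below those of CFPAC-1. The ranges of the CFPAC-1 groups overlapped only through positive replicate 3, which had the lowest sum of its group, and lay apart without it.

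**Figure D1:**
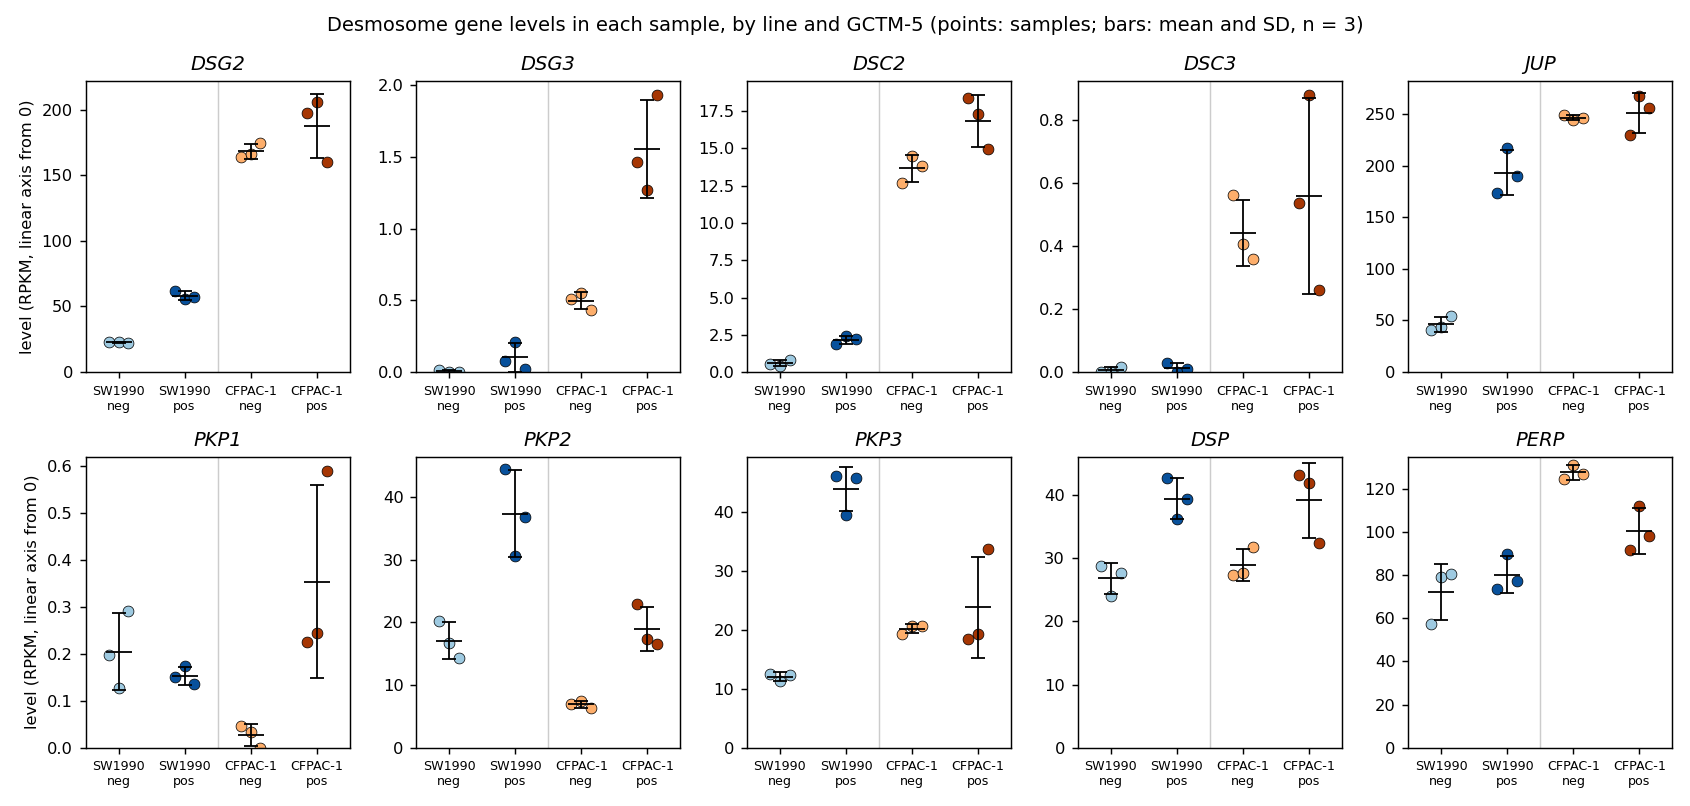
RPKM of each desmosome gene (vertical axes, linear from 0, a scale for each gene) in the 12 samples, by line and GCTM-5; points are samples and bars the mean and SD of 3, cut off at 0. *DSG2*, *DSC2*, *JUP* and *PKP3* were higher in the positive than in the negative SW1990 samples without overlap, while *JUP* and *DSG2* overlapped between the CFPAC-1 groups and *PERP* was lower in all 3 positive CFPAC-1 samples.

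The 4 cadherin genes stand together within 559.6 kb of chromosome 18, from 28569331 to 29128971 (GRCh37, GENCODE 44). This stretch holds 7 desmoglein and desmocollin genes beside other annotated genes. *DSC3* (28569331 to 28622781) and *DSC2* (28638806 to 28682485) are on the minus strand, and *DSG3* (29027704 to 29058665) and *DSG2* (29078140 to 29128971) on the plus strand. Antisense genes overlap *DSC2* and *DSG2*, and as the use of strand in counting is not stated, reads of such pairs cannot be told apart. How reads that match several related genes were counted is not stated either, which bears on all the desmogleins, desmocollins and plakophilins.

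The 250 bases before the start of transcription were read for the members from RefSeq (GRCh38.p14), which held 10 entries for 8 of the 10 members. *PKP2* and *PKP3* had no entry. In all 4 motifs were searched on both strands, and matches of different motifs were counted separately where they overlapped. The E-box letters CAGGTG or CACCTG are known to be bound by zinc-finger repressors of the ZEB and SNAI families. They were found for 4 members, *DSG2*, *DSC2*, *JUP* and *DSP*, in 4 of the 10 entries, and in 17.5% of all 35116 promoter windows of this length. The GC box letters GGGCGG were found for 6 members, in 7 entries, and in 42.6% of windows. The AP-1 letters TGANTCA were found for 1 member, *PERP*, in 1 entry, and in 6.57% of windows. The palindrome AACCGGTT of the grainyhead-like factors was found for 0 members and in 0.117% of windows. The windows with an E-box match are shown, a choice made with the calls known. Of these 4 members, 3 were called higher with GCTM-5 in SW1990, against 5 of all 10 members. The 5 include *PKP2* and *PKP3*, which could not be searched, and a link between match and change was not tested. Capitals mark the E-box letters, each sequence runs 5′ to 3′ on the strand of its gene, and a match is only a match of letters, since no binding was measured.
DSG2, chr18:31497927-31498176, plus strand: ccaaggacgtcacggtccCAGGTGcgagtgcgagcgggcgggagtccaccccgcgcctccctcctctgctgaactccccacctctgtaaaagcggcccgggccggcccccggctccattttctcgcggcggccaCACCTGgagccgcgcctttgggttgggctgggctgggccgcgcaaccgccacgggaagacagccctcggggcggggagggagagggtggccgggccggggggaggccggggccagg
DSC2, chr18:31102422-31102671, minus strand: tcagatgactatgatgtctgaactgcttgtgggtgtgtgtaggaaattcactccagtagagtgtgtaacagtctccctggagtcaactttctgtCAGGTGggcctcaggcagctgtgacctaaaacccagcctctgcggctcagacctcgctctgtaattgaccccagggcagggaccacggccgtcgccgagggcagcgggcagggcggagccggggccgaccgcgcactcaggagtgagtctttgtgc
JUP, chr17:41785977-41786226, minus strand: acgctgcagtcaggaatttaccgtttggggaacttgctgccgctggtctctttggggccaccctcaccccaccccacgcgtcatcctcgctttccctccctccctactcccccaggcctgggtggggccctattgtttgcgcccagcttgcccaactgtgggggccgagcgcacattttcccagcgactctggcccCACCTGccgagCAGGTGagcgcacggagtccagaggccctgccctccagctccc
DSP, chr6:7541421-7541670, plus strand: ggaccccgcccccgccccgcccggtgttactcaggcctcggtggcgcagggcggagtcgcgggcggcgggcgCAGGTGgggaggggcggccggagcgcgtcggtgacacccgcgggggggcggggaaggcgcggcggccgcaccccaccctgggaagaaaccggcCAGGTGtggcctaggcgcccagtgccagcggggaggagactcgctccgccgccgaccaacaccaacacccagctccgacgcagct
*DSG2*, *JUP* and *DSP* held 2 matches each in these windows and *DSC2* held 1. Further entries for *DSC2* and *JUP*, starting elsewhere, held none, nor did the windows of *DSG3*, *DSC3*, *PKP1* and *PERP*.

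*DSG2*, the desmoglein of nearly all desmosome-bearing epithelia, was at 23.0, 22.7 and 22.2 RPKM in SW1990 negative cells and at 61.8, 55.3 and 57.0 RPKM in SW1990 positive cells. CFPAC-1 cells had it at 163.9, 166.0 and 174.5 RPKM in negative and at 197.1, 206.1 and 159.9 RPKM in positive cells. The SW1990 groups did not overlap, and the CFPAC-1 groups did, because of positive replicate 3. On the scale of log2(RPKM + 0.1), used for all changes given here, *DSG2* was 1.35 higher with GCTM-5 in SW1990 (SE 0.095, 2.56-fold, adjusted p = 9.72e-07). In CFPAC-1 the change was 0.15 (SE 0.095, adjusted p = 0.237), or 0.26 without positive replicate 3 (adjusted p = 0.0145).

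*DSC2*, the matching desmocollin of simple epithelia, was low in SW1990, at 0.566, 0.426 and 0.798 RPKM in negative and 1.86, 2.42 and 2.23 RPKM in positive cells. CFPAC-1 had 12.7, 14.5 and 13.8 RPKM in negative and 18.4, 17.3 and 15.0 RPKM in positive cells. In each line all 3 positive samples lay above all 3 negative samples. The change was 1.73 in SW1990 (SE 0.184, 3.32-fold, adjusted p = 2.43e-05), and 0.99 with a pseudocount of 1 in place of 0.1, just under 2-fold. It was 0.30 in CFPAC-1 (SE 0.184, adjusted p = 0.23), which was not called.

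*DSG3*, the desmoglein of basal stratified epithelium, was close to the limit of the depth in SW1990. Its 3 negative samples held 2, 0 and 0 reads and its positive samples 8, 20 and 2 reads, or 0.0743, 0.212 and 0.0203 RPKM, where 3 reads of a negative library are worth 0.0232 to 0.0306 RPKM. Read for read, the positive libraries held 17.1 times as much (30 against 2 reads, 95% counting interval 4.33 to 147). The fitted change of 0.83 was not called (SE 0.327, adjusted p = 0.0812), and depended on the added constant: it was 0.13 with 1 (adjusted p = 0.399), 2.56 and called with 0.01, and 3.33 and called with voom. It also rested on single libraries, at 0.46 without positive replicate 2 (adjusted p = 0.29) and at 1.14 and called without positive replicate 3.

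In CFPAC-1, *DSG3* was at 0.509, 0.552 and 0.434 RPKM in negative cells and at 1.47, 1.27 and 1.93 RPKM in positive cells. Every positive sample was above every negative sample, on 48 to 67 reads a library in the negative and 107 to 213 in the positive group. The change of 1.45 was called (SE 0.327, 2.74-fold, adjusted p = 0.00504), as it was without positive replicate 3 at 1.30 (adjusted p = 0.0168). It was not called with a pseudocount of 1 (0.76) or of 0.01 (1.61, adjusted p = 0.0839).

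*DSC3*, the desmocollin of basal stratified epithelium, had 0, 0 and 2 reads in the SW1990 negative and 4, 0 and 1 in the SW1990 positive libraries, at or near the 3 reads taken as the limit, so no change with GCTM-5 could be measured in SW1990. CFPAC-1 had 0.559, 0.406 and 0.359 RPKM in negative and 0.537, 0.878 and 0.259 RPKM in positive cells. The positive samples spanned the negative ones, on 98, 115 and 18 reads. The change in CFPAC-1 was 0.18 (SE 0.346, adjusted p = 0.722), ranging from -0.16 to 0.56 as single samples were left out.

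*JUP* (chromosome 17, 39910856 to 39943183, minus strand, GRCh37) encodes plakoglobin, which also serves in adherens junctions. It was at 40.3, 43.8 and 54.5 RPKM in SW1990 negative and at 173.3, 216.6 and 189.7 RPKM in SW1990 positive cells. CFPAC-1 had 248.6, 244.1 and 246.3 RPKM in negative and 229.9, 267.4 and 256.1 RPKM in positive cells. The SW1990 groups lay far apart, and the CFPAC-1 positive samples lay on both sides of the negative ones. With the pseudocount of 0.1 it had the largest change of the 10 genes in SW1990, 2.07 (SE 0.118, 4.19-fold, adjusted p = 2.52e-07), higher than in 98.2% of all genes. The change of *DSG3*, which rests on few reads, was larger with a pseudocount of 0.01 (2.56 beside 2.07 for *JUP*) and with voom (3.33 beside 2.09). In CFPAC-1 the change was 0.02 (SE 0.118, adjusted p = 0.899), and its sign turned under median centring, quantile normalization and voom.

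*PKP3* (chromosome 11, 392614 to 404908, plus strand), a plakophilin of both simple and stratified epithelia, was at 12.6, 11.3 and 12.3 RPKM in SW1990 negative and at 46.2, 39.6 and 45.9 RPKM in SW1990 positive cells. CFPAC-1 had 19.3, 20.6 and 20.7 RPKM in negative and 18.5, 19.4 and 33.7 RPKM in positive cells. The SW1990 groups were apart, whereas 2 of the 3 CFPAC-1 positive samples sat at the level of the negative ones and replicate 3 stood alone above them. The change was 1.85 in SW1990 (SE 0.182, 3.61-fold, adjusted p = 1.26e-05). In CFPAC-1 it was 0.18 (SE 0.182, adjusted p = 0.459) and -0.09 without positive replicate 3 (adjusted p = 0.452).

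*PKP2* (chromosome 12, 32943679 to 33049732, minus strand), the plakophilin of simple epithelia and heart muscle, was at 20.2, 16.7 and 14.3 RPKM in SW1990 negative and at 44.5, 30.6 and 36.8 RPKM in SW1990 positive cells. In CFPAC-1 it was at 7.001, 7.40 and 6.35 RPKM in negative and at 22.9, 17.3 and 16.5 RPKM in positive cells. All positive samples lay above all negative samples of their line. It was 1.12 higher with GCTM-5 in SW1990 (SE 0.168, 2.17-fold, adjusted p = 0.000332) and 1.43 higher in CFPAC-1 (SE 0.168, 2.69-fold, adjusted p = 0.00011). Without SW1990 positive replicate 1 the SW1990 change was 0.99, under 2-fold (adjusted p = 0.00174). Without CFPAC-1 positive replicate 3 the CFPAC-1 change was 1.52 (adjusted p = 0.000197).

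*PKP1* (chromosome 1, 201252580 to 201302121, plus strand), the plakophilin of stratified epithelia, was at 0.197, 0.126 and 0.291 RPKM in SW1990 negative and at 0.151, 0.173 and 0.135 RPKM in SW1990 positive cells, which overlapped. In CFPAC-1 the negative libraries held 5, 4 and 0 reads and the positive ones 32, 25 and 32 reads, or 0.225, 0.245 and 0.589 RPKM. All 3 positive CFPAC-1 samples were above the negative ones, though at a level far below *PKP2*. The change in CFPAC-1 was 1.76 (SE 0.339, 3.4-fold, adjusted p = 0.00206) and 1.42 without positive replicate 3 (adjusted p = 0.00462), but 0.39 and not called with a pseudocount of 1. Per library, the CFPAC-1 positive samples held 11.04 times the reads of the negative ones (89 against 9 reads, 95% counting interval 5.56 to 24.9). In SW1990 the change was -0.23 (SE 0.339, adjusted p = 0.668).

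*DSP* (chromosome 6, 7541571 to 7586947, plus strand), with an antisense gene across it, encodes desmoplakin, the link to keratin. It was at 28.7, 24.1 and 27.7 RPKM in SW1990 negative and at 42.8, 36.2 and 39.5 RPKM in SW1990 positive cells. The CFPAC-1 levels were 27.4, 27.6 and 31.8 RPKM in negative and 43.2, 41.9 and 32.4 RPKM in positive cells. Positive samples were above negative ones in each line, in CFPAC-1 only just for positive replicate 3. The change was 0.56 in SW1990 (SE 0.122, 1.47-fold, adjusted p = 0.00464) and 0.43 in CFPAC-1 (SE 0.122, 1.35-fold, adjusted p = 0.0171), or 0.56 without positive replicate 3. Neither reached 2-fold, so *DSP* was not called, although its adjusted p was under 0.05 in each line, as it was for 28.2% of all genes in SW1990 and 36.5% in CFPAC-1. In CFPAC-1 that adjusted p was 0.0519 under median centring, 0.0624 under quantile normalization and 0.0594 with each line fitted alone, and up to 0.0696 as single samples were left out.

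*PERP* (chromosome 6, 138409642 to 138428556, minus strand), a target of p53 family factors that sits in desmosomal membranes, was at 57.2, 79.0 and 80.3 RPKM in SW1990 negative and at 73.6, 89.7 and 77.3 RPKM in SW1990 positive cells, which overlapped. In CFPAC-1 it was at 124.6, 131.1 and 126.8 RPKM in negative and at 91.4, 112.2 and 98.0 RPKM in positive cells, with all 3 positive samples below all 3 negative ones. The change was 0.16 in SW1990 (SE 0.132, adjusted p = 0.406) and -0.35 in CFPAC-1 (SE 0.132, adjusted p = 0.0582), neither of which was called. Over the alternatives the CFPAC-1 change ran from -0.45 to -0.28, under 2-fold, with an adjusted p of 0.0191 to 0.177. That adjusted p was under 0.05 with, among others, median centring (0.0354), voom (0.0249) and the replicate block (0.0288).

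Without regard to thresholds, 7 members in SW1990 had every positive sample above every negative sample, against 17.9% of all genes, and 0 had the reverse order, against 25.4%. Among the 7, *DSG3* was separated by little, as its lowest positive and its highest negative library held 2 reads each. In CFPAC-1, 5 members had every positive sample above every negative one, against 28.1% of all genes, and 1, *PERP*, had the reverse, against 20.4%.

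Whether the change with GCTM-5 differed between the lines was tested as the change in SW1990 minus the change in CFPAC-1. It differed at an adjusted p under 0.05 for 5 of the 10 members, beside 26.9% of all genes, and 4 of the 5 had the larger change in SW1990 (9.16% of all genes, against 17.8% with the smaller one). These 4 were *JUP*, by 2.04 (SE 0.167, adjusted p = 1.01e-05), *PKP3*, by 1.67 (SE 0.257, adjusted p = 0.00065), *DSC2*, by 1.43 (SE 0.261, adjusted p = 0.00187), and *DSG2*, by 1.20 (SE 0.134, adjusted p = 7.83e-05). *PKP1* differed the other way, by -2.00 (SE 0.480, adjusted p = 0.00941), resting on 9 reads in the CFPAC-1 negative libraries, and its size depended on the scale, from -0.45 with a pseudocount of 1 to -4.01 with voom (adjusted p = 0.031 and 0.0044). All 5 kept an adjusted p under 0.05 without CFPAC-1 positive replicate 3.

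The other 5 showed no difference past the threshold. For *PKP2* it was -0.30 (SE 0.237, adjusted p = 0.375), for *DSP* 0.13 (SE 0.172, adjusted p = 0.624) and for *PERP* 0.51 (SE 0.187, adjusted p = 0.0627). *PERP* passed in 5 alternatives, among them median centring (0.66, adjusted p = 0.0402) and the fits without SW1990 negative replicate 3 (0.60) or CFPAC-1 positive replicate 2 (0.59). The differences for *DSG3* (-0.63) and *DSC3* (-0.09) turned sign with a pseudocount of 0.01 and with voom. Of all genes called as differing, 34.0% were higher in SW1990, or 50% after median centring, which moved the median of all genes from -0.15 to 0.00.

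**Figure D2:**
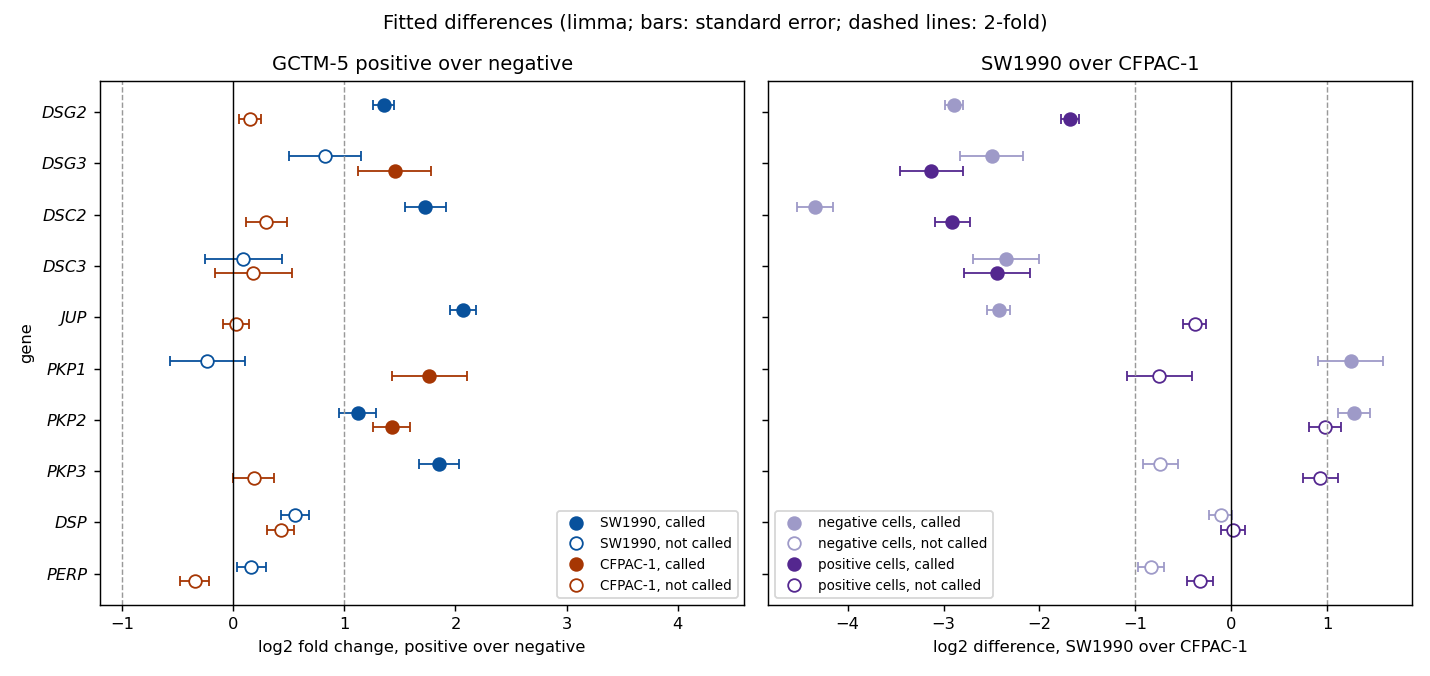
Fitted log2 differences (horizontal axes) with their standard errors for each desmosome gene, between positive and negative cells of each line (left) and between the lines in negative or positive cells (right); filled points were called and dashed lines mark 2-fold. *JUP*, *PKP3*, *DSC2* and *DSG2* lie at 1.35 to 2.07 in SW1990 and at 0.02 to 0.30 in CFPAC-1, and *PKP2* lies past 1 in both lines.

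RPKM is per gene length, so members of a class can be set side by side within a sample. The summed level of the 3 plakophilins among the members, *PKP1*, *PKP2* and *PKP3*, was 29.3 ± 3.19 RPKM (SD, n = 3) in SW1990 negative and 81.3 ± 10.3 RPKM in SW1990 positive cells, and 27.1 ± 0.846 and 43.1 ± 7.08 RPKM in CFPAC-1 negative and positive cells. The sums of the negative samples overlapped between the lines, and their make-up did not. *PKP2* made up 57.9% ± 4.21 of it in SW1990 negative cells (53.2% to 61.2%) and 25.5% ± 1.72 in CFPAC-1 negative cells (23.5% to 26.6%). In positive cells its share was 45.7% ± 2.94 in SW1990 (43.5% to 49.0%) and 44.8% ± 11.4 in CFPAC-1 (32.5% to 55.1%).

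Within these 3 genes, the share of *PKP2* was 12.3 percentage points lower with GCTM-5 in SW1990 and 19.3 points higher in CFPAC-1, without overlap of the samples in either line. Each gave p = 0.1 in a 2-sided exact permutation test, the smallest p that 3 samples against 3 allow. Without CFPAC-1 positive replicate 3 the CFPAC-1 difference was 25.5 points. *PKP3* took the rest almost whole: its share was 41.4% and 54.2% in SW1990 negative and positive cells and 74.4% and 54.4% in CFPAC-1 (exact permutation p = 0.1 in each line). In the CFPAC-1 positive samples the *PKP3* share was 44.4%, 52.5% and 66.4%, the last of these in replicate 3. *PKP1* made up at most 1.16% of the class in any sample.

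*PKP4*, a relative of the plakophilins found in desmosomes and adherens junctions, is not a member and was not counted in these shares. It was at 19.6 ± 1.29 RPKM in SW1990 negative, 34.4 ± 1.23 in SW1990 positive, 11.3 ± 0.714 in CFPAC-1 negative and 10.7 ± 1.72 in CFPAC-1 positive cells (SD, n = 3), so in SW1990 its mean was close to that of *PKP2*. With *PKP4* counted, an alternative chosen after the values were seen, the share of *PKP2* was 34.7% ± 3.03 in SW1990 negative and 32.0% ± 3.03 in SW1990 positive cells. The samples then overlapped, and the difference shrank to -2.65 points (exact permutation p = 0.3). In CFPAC-1 its share was 18.02% ± 1.54 and 35.7% ± 8.40, 17.7 points higher in positive cells with no overlap (exact permutation p = 0.1). The share of *PKP3* was then 13.2 points higher in SW1990 positive cells (exact permutation p = 0.1) and differed by -8.88 points in CFPAC-1, where the samples overlapped (exact permutation p = 0.4). Without CFPAC-1 positive replicate 3 the CFPAC-1 differences were -14.1 points for *PKP3* and 22.3 points for *PKP2*.

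**Figure D3:**
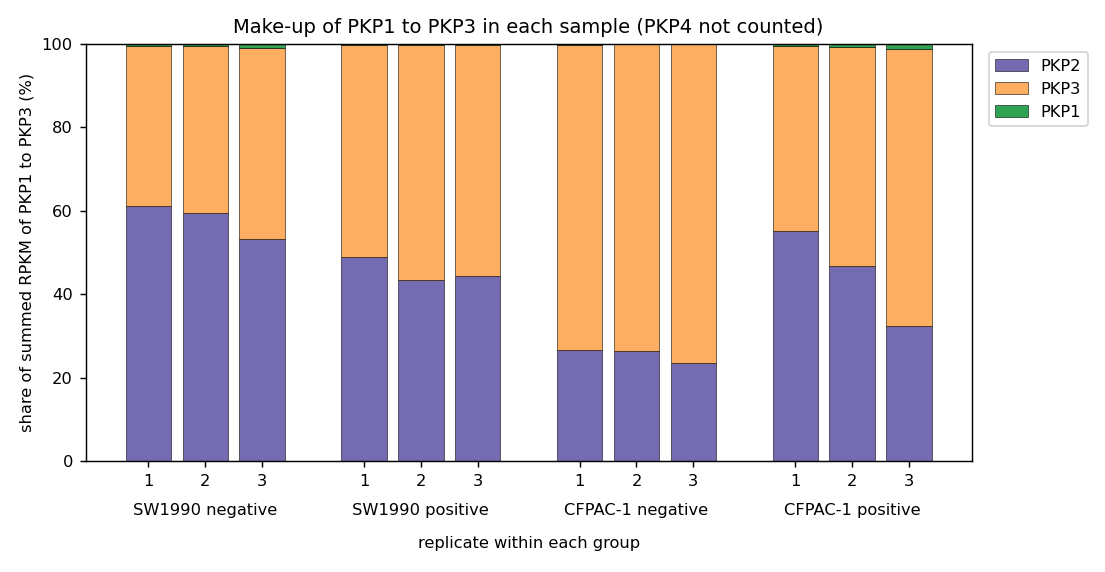
Shares of *PKP1*, *PKP2* and *PKP3* in their summed RPKM (vertical axis, percent; *PKP4* not counted) in each of the 12 samples, grouped by line and GCTM-5. The *PKP2* share lies between 53.2% and 61.2% in SW1990 negative and between 43.5% and 49.0% in SW1990 positive samples, and between 23.5% and 26.6% in CFPAC-1 negative and between 32.5% and 55.1% in CFPAC-1 positive samples.

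Among the cadherins, *DSG2* and *DSC2* carried the classes in each group, counted without *DSG1*, *DSG4* and *DSC1*, which fell below the filter. *DSG3* made up 0.0254% of desmoglein RPKM in SW1990 negative and 0.179% in positive cells (exact permutation p = 0.2), and 0.296% and 0.848% in CFPAC-1 (exact permutation p = 0.1). *DSC3* made up 0.664% and 0.643% of desmocollin RPKM in SW1990 and 3.16% and 3.12% in CFPAC-1 (exact permutation p = 1.0 in each line). *DSG2* was 40.6 ± 12.7 times the level of *DSC2* in SW1990 negative cells, 27.3 ± 5.40 times in SW1990 positive cells, and 12.3 ± 0.766 and 11.1 ± 0.696 times in CFPAC-1. The ratio of *JUP* to *DSP* was 1.73 ± 0.293 in SW1990 negative and 4.95 ± 0.971 in SW1990 positive cells, against 8.55 ± 0.717 and 6.54 ± 1.29 in CFPAC-1 (each SD, n = 3).

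By mean RPKM, *PERP* was the highest member in SW1990 negative cells (72.2), followed by *JUP* (46.2), *DSP* (26.9), *DSG2* (22.6), *PKP2* (17.1) and *PKP3* (12.1), with no overlap between neighbours. In SW1990 positive cells the order was *JUP* (193.2), *PERP* (80.2) and *DSG2* (58.0), then *PKP3* (43.9), *DSP* (39.5) and *PKP2* (37.3), whose samples overlapped. CFPAC-1 negative cells had *JUP* (246.4), *DSG2* (168.1), *PERP* (127.5), *DSP* (28.9), *PKP3* (20.2), *DSC2* (13.7) and *PKP2* (6.92), with no overlap between neighbours. CFPAC-1 positive cells began with *JUP* (251.2), *DSG2* (187.7) and *PERP* (100.6), and *DSP* (39.2), *PKP3* (23.9), *PKP2* (18.9) and *DSC2* (16.9) overlapped from each to the next. *DSC2* in SW1990 and *PKP1*, *DSG3* and *DSC3* in all groups were at 2.42 RPKM or less in every sample.

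Set side by side, the negative cells of the lines differed in 7 of the 10 members, 5 of them lower and 2 higher in SW1990. Of all genes, 36.9% were called in this comparison, 15.0% as lower and 21.9% as higher. It shares its samples with the comparisons of positive against negative cells. On the log2 scale, SW1990 over CFPAC-1, the lower members were *DSC2*, at -4.34 (SE 0.184, 20.2-fold lower, adjusted p = 2.02e-09), *DSG2*, at -2.89 (SE 0.095, 7.40-fold, adjusted p = 2.67e-10), *JUP*, at -2.42 (SE 0.118, 5.37-fold, adjusted p = 5.74e-09), and *DSG3* and *DSC3*. *DSG3* had 2 reads in the SW1990 and 170 in the CFPAC-1 negative libraries (ratio per library 85.3, 95% counting interval 23.3 to 710), and *DSC3* 2 and 188 (94.4, 25.8 to 785). *PKP2* was 1.28 higher in SW1990 (SE 0.168, 2.43-fold, adjusted p = 2.6e-05) and *PKP1* 1.25 higher (SE 0.339, adjusted p = 0.00595). The call for *PKP1* was lost without SW1990 negative replicate 3 (1.05), without CFPAC-1 negative replicate 3 (1.08) and with a pseudocount of 1 (0.23), and its difference was 3.05 with voom. Median centring moved the median of all genes from 0.19 to 0.01 and the share of calls that were higher from 59.4% to 49.5%, and added *PERP*, which was at -0.84 as deposited and at -1.03 when centred.

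Between the positive cells of the lines, 4 members differed, all lower in SW1990, beside 28.5% of all genes, 13.7% as lower and 14.8% as higher. They were the 4 cadherins: *DSC2*, at -2.91 (SE 0.184, 7.5-fold, adjusted p = 7.78e-08), *DSG2*, at -1.68 (SE 0.095, 3.21-fold, adjusted p = 2.87e-08), *DSG3*, at -3.13 (30 against 452 reads, ratio per library 14.8, 95% counting interval 10.3 to 22.3), and *DSC3*, at -2.44 (5 against 231 reads, ratio 45.5, 19.2 to 142). *JUP*, at -2.42 in negative cells, was at -0.38 here (SE 0.118, adjusted p = 0.0142), under 2-fold. *PKP2* was 0.97 higher (adjusted p = 0.000304) and *PKP3* 0.93 higher (adjusted p = 0.000803), both under 2-fold. *PKP2* passed 2-fold and was called without SW1990 positive replicate 2 (1.11) or CFPAC-1 positive replicate 1 (1.12). Thus 0 members were called higher by limma or voom, and 2, these plakophilins, were higher at an unadjusted p under 0.05. Without CFPAC-1 positive replicate 3 *PKP3* was 1.20 higher and called. *DSP* differed by -0.11 in negative and 0.02 in positive cells, the latter turning sign under median centring, quantile normalization and voom.

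Beside the members, 4 lists of related genes were counted, which were chosen with earlier results of these data known. Of all genes tested, 4.59% were called higher and 7.48% lower in SW1990, and 5.65% higher and 4.13% lower in CFPAC-1. Of 12 further desmosome family and desmosome-associated genes, 9 were tested, as *DSG1*, *DSG4* and *DSC1* fell below the filter. In SW1990, 1 was called higher, *PPL*, a plakin that ties keratins to the cell border, from 21.7 ± 4.23 to 106.2 ± 7.34 RPKM (change 2.30, adjusted p = 9.26e-07). *PRKCA*, a kinase known to loosen desmosomes, was called lower (-2.16, adjusted p = 3.54e-07). In CFPAC-1, 1 was called higher, *CDSN*, an adhesion protein of cornifying cells, from 1.65 ± 0.218 to 5.78 ± 1.68 RPKM (change 1.72, adjusted p = 0.000248). There 0 were called lower by limma or voom, and 2 were lower at an unadjusted p under 0.05. Of all genes in CFPAC-1, 36.5% had an adjusted p under 0.05 in either direction. The list's median change was 0.32 in SW1990 and -0.08 in CFPAC-1.

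Of 10 intermediate filament genes, the anchors of desmosomes on the inside, 4 were called higher and 3 lower in SW1990. *KRT19* (1.57), *KRT8* (1.39), *KRT17* (1.29) and *KRT18* (1.29) were higher and *VIM* (-2.37), *DES* (-1.64) and *KRT14* (-1.41) lower, with *DES* and *KRT14* at 0.893 RPKM or less in every sample. In CFPAC-1 *KRT5*, a keratin of basal stratified cells, was called higher (2.39, from 0.103 ± 0.0924 to 1.011 ± 0.653 RPKM), and *KRT20*, a keratin of gut epithelium, was called lower (-1.93, from 13.04 ± 6.13 to 3.16 ± 1.22 RPKM). The list's median change was 0.08 in SW1990 and 0.16 in CFPAC-1.

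Of 12 adherens junction genes, 4 were called higher in SW1990 and 1 lower, beside 4.59% and 7.48% of all genes. The higher ones were *CDH1*, which encodes E-cadherin (3.04, from 12.6 ± 3.51 to 102.4 ± 7.69 RPKM), *PVRL4* (2.62), *CDH3* (2.43) and *MLLT4* (1.13), and the lower one was *CDH2*, which encodes N-cadherin (-2.17). Of 9 hemidesmosome genes, whose products fasten cells to the basement membrane, 4 were called higher in SW1990, among them *LAMA3* (2.51) and *COL17A1* (1.62). None of the 9 was lower at an unadjusted p under 0.05 or called lower by voom. In CFPAC-1, 0 genes of either list were called by limma, against 9.78% of all genes. There 5 adherens junction and 4 hemidesmosome genes had an unadjusted p under 0.05, and voom called 0 and 1, *COL17A1*, as lower. Limma too called 1 hemidesmosome gene without CFPAC-1 negative replicate 1 or positive replicate 3. Of all genes in CFPAC-1, 36.5% had an adjusted p under 0.05. That cut is stricter than the unadjusted one, whose share was not computed. Median changes were 0.36 and -0.16 for the adherens junction and 0.68 and -0.35 for the hemidesmosome, in SW1990 and CFPAC-1.

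**Figure D4:**
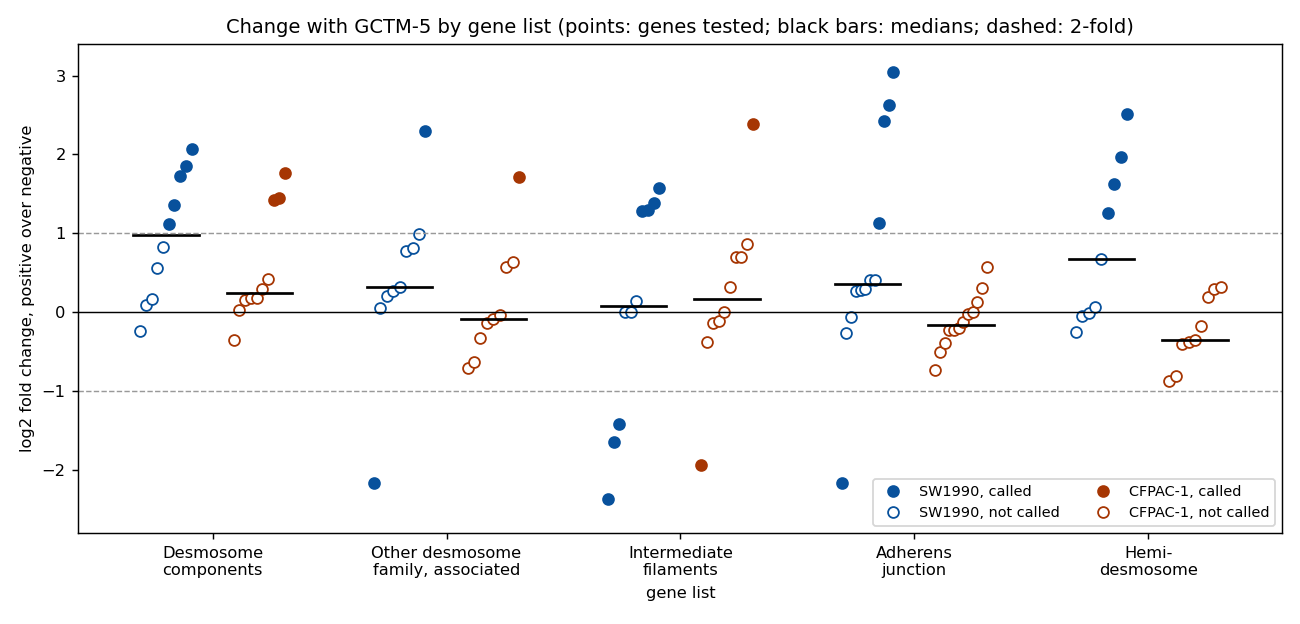
Log2 change between GCTM-5 positive and negative cells (vertical axis) of every gene tested in 5 lists, for SW1990 (blue) and CFPAC-1 (brown); filled points were called, bars are medians and dashed lines mark 2-fold. The desmosome genes have 5 called points in SW1990 and 3 in CFPAC-1, all above 1, and the adherens junction and hemidesmosome lists have called points in SW1990 and 0 in CFPAC-1.

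The other lists held markers of other cell types. Of 3 fibroblast genes tested, 2 were called lower with GCTM-5 in SW1990, where the 6-gene sum was 12.7 to 22.6 RPKM in negative and 3.90 to 4.86 in positive cells, and 0 in CFPAC-1 (0 at an unadjusted p under 0.05 and 0 by voom), where it was at most 2.39. Of 3 endothelial genes tested, 1, *CDH5*, was called lower in SW1990, from 15.6 ± 1.83 to 1.33 ± 0.255 RPKM, and 0 in CFPAC-1 by limma, voom or at an unadjusted p under 0.05. Of 3 leukocyte genes tested, *CD14* and *CD68* were called lower in SW1990 and *CD14* in CFPAC-1. The part of these genes in the desmosome results was not tested.

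For *JUP*, *PKP2* and *DSP*, other genes with the most similar profiles were listed, by the root mean square distance between log2 values centred over the 12 samples. Nearest to *JUP* were *IL28RA* (0.188), a receptor chain for lambda interferons, and *PRRG4* (0.198), the latter with means of 1.11, 5.64, 5.96 and 6.75 RPKM in SW1990 negative, SW1990 positive, CFPAC-1 negative and CFPAC-1 positive cells. Nearest to *PKP2* were *SAPCD2* (0.212), *ARHGEF26* (0.232) and *ZNF860* (0.246), and nearest to *DSP* were *RAP1GAP2* (0.121), *SPIN4* (0.123) and *TMOD3* (0.123), which encodes an actin-capping protein. In the same order of groups, *SAPCD2* had means of 24.9, 45.5, 12.2 and 27.8 RPKM and *TMOD3* of 40.2, 61.2, 44.9 and 60.4 RPKM. These distances describe the 12 samples, which share 2 lines, and were not tested.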

How the data were processed

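RNA of 12 samples of sorted SW1990 and CFPAC-1 cells was analysed, grouped by line and GCTM-5 as labelled. The deposited values are RPKM, for which the authors aligned reads to hg19 (GRCh37), counted them per gene with QuasR and divided by library size and gene length. The annotation, the use of strand and the version are not given in the sources used here. Whole reads were recovered from the RPKM steps with the lengths of single-exon GENCODE genes, for all 19654 genes above 0 to within 0.01 of a read. In a simulation the step found all 12 library totals. Depth ranged from 9969697 to 26159330 reads, and intervals cover counting error only.

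Testing took the 16236 of 23346 genes whose RPKM averaged at least 0.1 over all samples. Values of log2(RPKM + 0.1) entered limma 3.58.1 in R 4.3.3 (eBayes with trend), with a mean for each of the 4 groups, no covariate and 2-sided tests. Calls within a line or between lines needed a fitted change past 2-fold and an unadjusted p under 0.01, and a difference between lines in the change needed a Benjamini-Hochberg adjusted p under 0.05. The adjustment covered all genes tested. In simulated SW1990 data 100% of 4-fold changed genes and 0.212% of unchanged genes were called. The changed genes were drawn only from genes with many reads, and all genes were given the same spread. The simulation therefore does not cover changes near 2-fold or genes with few reads, such as *DSG3*, *DSC3* and *PKP1*. The paper names TCC, which needs counts and was not used. Shares within a class were compared by exact permutation tests. Alternatives were pseudocounts of 1 and 0.01, no filter or a mean RPKM of at least 1, median centring, quantile normalization, each line alone, a replicate block, no intensity trend, an adjusted p under 0.05, voom on the recovered reads with TMM factors, and leaving out each of the 12 samples. Counting *PKP4* among the plakophilins was added after seeing the data.

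Named genes are the 10 members, up to 4 called genes a line from each of the 4 related lists (those with the largest change), the 3 genes most like *JUP*, *PKP2* and *DSP* in profile, and markers. Of these, 1 gene is not reported here. Members and lists were chosen with earlier results of these data known. Tables and figures were made in Python 3.11.15 (numpy 2.4.6, pandas 2.3.3, scipy 1.17.1, matplotlib 3.10.9).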

Additional observations from a re-analysis of the deposited data

Results flagged for a closer look

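The change between GCTM-5 positive and negative cells differed between SW1990 and CFPAC-1 for 5 of the 10 desmosome genes, by a test of the difference itself in limma at an adjusted p under 0.05, as it did for 26.9% of all genes tested. The change in SW1990 minus the change in CFPAC-1, on the log2 scale, was 2.04 for *JUP*, 1.67 for *PKP3*, 1.43 for *DSC2*, 1.20 for *DSG2* and -2.00 for *PKP1*. The value for *PKP1* ran from -0.45 with a pseudocount of 1 to -4.01 with voom. The groups have 3 samples each, so no sample was flagged here for lying far from its group. GCTM-5 positive CFPAC-1 replicate 3 was set apart earlier in the text, by its depth and its correlations.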

How the results depend on the processing

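Of 1095 recomputed changes of a member, 1048 kept their direction and their side of the threshold. With a pseudocount of 1, which shrinks the change of low genes, 1101 genes were called in SW1990 (1961 with 0.1), 759 in CFPAC-1 (1588) and 2965 between positive cells (4627), and the members called were 1 in CFPAC-1, 4 between negative cells and 3 between positive cells, where *DSC3* was at -0.60 and lost its call. With a mean RPKM of at least 1, which leaves *DSG3*, *DSC3* and *PKP1* untested, the members called were 1 in CFPAC-1, 4 between negative cells and 2 between positive cells. Changes that were not called turned sign as follows, and the cause was not tested. In SW1990, *PKP1* was at 0.075 under quantile normalization, and *DSC3* ranged from -0.016 to 0.171 as samples were left out. In CFPAC-1, *JUP* was at -0.075 under median centring, -0.002 under quantile normalization and -0.047 with voom, and left-out samples gave -0.022 to 0.087 for *JUP*, -0.163 to 0.56 for *DSC3* and -0.092 to 0.34 for *PKP3*. Of the differences between lines, *DSG3* was at 0.95 with a pseudocount of 0.01, 1.83 with voom and -0.63 with a pseudocount of 1, where it was called, *DSC3* at 0.29 with 0.01, 0.058 under median centring and 0.82 with voom, and left-out samples gave -0.47 to 0.25 for *DSC3* and -0.002 to 0.20 for *DSP*. Between positive cells, *DSP* was at -0.02 under median centring, -0.012 under quantile normalization and -0.056 with voom, and at -0.11 to 0.095 with samples left out. The share of *DSC3* in its class changed by -0.483 to 0.643 points in SW1990 and by -0.887 to 0.678 points in CFPAC-1 as samples were left out. *DSG3* in SW1990, not called at 0.83, was called under quantile normalization (1.02), with a pseudocount of 0.01, with voom and without SW1990 positive replicate 3 (1.14), and was at 0.13 (adjusted p = 0.399) with a pseudocount of 1 and at 0.46 (adjusted p = 0.29) without SW1990 positive replicate 2. With *PKP4* counted in the class, an alternative chosen after seeing the data, the share of *PKP2* differed by -2.65 points in SW1990 in place of -12.3. Median centring moved the median of all genes in CFPAC-1 from 0.05 to -0.05 and the share of calls that were higher from 57.7% to 45.8%.

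No clear pairing of samples by replicate number was seen: deviations from the group means correlated at -0.06 to 0.18 between samples of 1 number and at -0.25 to 0.16 between others. With 3 samples a group these correlations cannot exclude a pairing. With the replicate block, 1961 genes were called in SW1990 and 1587 in CFPAC-1. *PERP* then passed the test of a difference between lines (0.51, adjusted p = 0.0323), *PKP1* lost its call between negative cells (1.25, adjusted p = 0.0224), and no other member's call changed. Depth limits *DSG3* and *DSC3* in SW1990 and *PKP1* in CFPAC-1 negative cells, which rest on at most 20 reads in any library.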
